A study of Mus musculus with 19 samples.

Results

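Hedgehog pathway expression was examined in BRAF-driven mouse skin tumours through 7 genes, the ligand Shh, the receptor Ptch1, the decoy Hhip, the signal transducer Smo and the transcription factors Gli1, Gli2 and Gli3. The genes were taken by symbol, and all 7 were present among the 34807 genes of the table. Bulk RNA sequencing covered 19 libraries from female mice. There were 6 Ivl:BRAFV600E tumours, 5 K5:BRAFV600E tumours, 4 K14:BRAFV600E tumours and 4 samples of skin from wild-type mice. The oncogene, an activated form of the MAPK pathway kinase BRAF, was switched on with tamoxifen, in mice of 7 to 20 weeks per the labels, by a Cre recombinase under the promoter of Ivl, active in committed keratinocytes, or of Krt5 (K5) or Krt14 (K14), active in basal keratinocytes. The methods give a narrower range of ages at induction than the labels, and which applies to these mice is unclear. The controls were littermates, and their age at sampling and any tamoxifen treatment are not given in the sources used here. Per the study's methods, Ivl mice received tamoxifen and K5 and K14 mice 4-hydroxytamoxifen on the back, so agent and cell of origin cannot be told apart, and the labels do not give the body site of each tumour, although lesions away from the back are described for the Ivl model alone. The paper also reports a much longer time from induction to tumour onset in the Ivl model. Time since induction and cell of origin therefore cannot be told apart either. The labels call the tumours squamous cell carcinoma, and the keratinocyte markers were present in all of them, with a summed level of 44910 to 112000 CPM (counts scaled to a common library size) against 8869 to 15440 CPM in skin. Each library was made from whole tissue, in which fewer cells of a type and less RNA per cell cannot be told apart. No source states outright that the tumours of a group came from separate mice. The paper describes a single tumour per mouse for the K5 and K14 models and several lesions for the Ivl model. The p-values therefore measure the spread between these samples, which may in part be technical.

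Total counts were 45715309 to 72609771 per library. The deposited counts had been adjusted for a sequencing batch by the authors, and 4 libraries (Ivl tumours 1, 2 and 3 and K5 tumour 1, the set of 4 below) bore its trace. For 96.6% of 13954 genes the average of these 4 differed by less than 0.1 on the log2 scale from the average of the 15 remaining libraries, skin included, whereas the next of 3876 such sets reached 64.1%. The 7 genes followed this. In CPM divided by the library total alone, the set held a mean of 11.01 CPM of Gli1 and the other 15 libraries 11.11 CPM, but the 11 other tumours only 2.02 CPM. For Ptch1 the 3 means were 41.7, 42.8 and 15.9 CPM, and for Shh 1.97, 2.098 and 0.195 CPM. Over the 7 genes the set lay between -0.09 and 0.02 log2 from the other 15 libraries and between 0.13 and 3.33 log2 above the other tumours. Each comparison is therefore given for all 19 libraries and again for the 15 libraries outside the set, which were 3 Ivl, 4 K5 and 4 K14 tumours and the 4 samples of skin. Within these 15, skin libraries had 3242 to 3670 genes at 0 and the 11 tumours 8034 to 10882. Rn7sk, an RNA without poly(A), was at 1374 to 2135 CPM in skin and 5.91 to 15.9 CPM in those tumours. Every comparison with skin carries these differences, and their source was not tested.

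Hedgehog ligands bind the membrane protein Ptch1, which in their absence keeps Smo inactive. Once Smo is released it accumulates in the primary cilium, a sensory projection of the cell surface, and the GLI proteins activate their targets. Gli2 and Gli3 carry the first response, Gli3 acting mainly as a repressor in the absence of signal, while Gli1, Ptch1 and Hhip are themselves targets, and their transcripts are widely used as readouts. Ptch1 and Hhip both restrain the pathway, Hhip by binding the ligands. In skin, Shh is made by the epithelium of the growing hair follicle and is received by neighbouring epithelial cells and by the dermal papilla beneath. Activation of the pathway by mutation drives basal cell carcinoma, a tumour distinct from squamous cell carcinoma.

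Promoter windows were read for 5 of the 7 genes (Ptch1, Smo, Gli2, Gli3 and Hhip) from RefSeq (GRCm38.p6). Those of Smo, the member that was higher in tumours, and Hhip, a GLI target that was lower, are shown to set the sequence beside the direction of change. Each is the 250 bases before the annotated start of the gene, on the gene's own strand, at chr6:29735247-29735496 for Smo (plus strand) and chr8:80058009-80058258 for Hhip (minus strand).
Smo: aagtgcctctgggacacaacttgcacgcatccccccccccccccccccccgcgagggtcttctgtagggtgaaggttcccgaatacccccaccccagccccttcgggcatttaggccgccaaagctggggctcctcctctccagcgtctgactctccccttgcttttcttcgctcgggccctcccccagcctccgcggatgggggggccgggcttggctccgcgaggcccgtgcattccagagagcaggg
Hhip: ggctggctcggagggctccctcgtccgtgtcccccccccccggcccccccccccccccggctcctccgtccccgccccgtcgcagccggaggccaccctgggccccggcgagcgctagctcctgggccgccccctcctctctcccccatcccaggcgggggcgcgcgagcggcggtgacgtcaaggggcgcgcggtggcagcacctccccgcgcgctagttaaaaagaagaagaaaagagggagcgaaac
No capitals appear because the binding motif of the GLI proteins, GACCACCCA or TGGGTGGTC on the other strand, was matched exactly in neither. Over windows that also take in the first 50 bases of the transcript, 0 of the 5 members' windows held it, nor did any of 78 windows of 62 other pathway genes, and 83 of 32851 windows of all genes (0.253%) did. The printed windows of Smo and Hhip had 15 and 28 CpG dinucleotides and those of Gli2, Gli3 and Ptch1 had 22, 34 and 41, against a median of 6 in all windows. The Ptch1 window lay within the annotated gene (GRCm38 chromosome 13, 63508328 to 63573598, minus strand) and that of Gli3 also began inside its annotated gene, so neither is printed.

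Smo was the most abundant member per length of transcript in every group. In skin it stood at 13.8 CPM per kilobase of exon, followed by Ptch1 (5.27), Gli1 (4.60), Gli3 (4.21), Gli2 (3.32), Shh (1.61) and Hhip (0.889). Between the members from Ptch1 to Gli2 these differences were smaller than the spread over the skin samples. In the tumours outside the set of 4 the order below Smo was another. Gli3 came next in both Ivl and K5/K14 tumours (1.89 and 1.92 CPM per kilobase), whereas Gli1 stood below Ptch1 and Gli2 (0.703 and 0.367 CPM per kilobase) and Shh last (0.111 and 0.0610 CPM per kilobase).

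**Figure D1:**
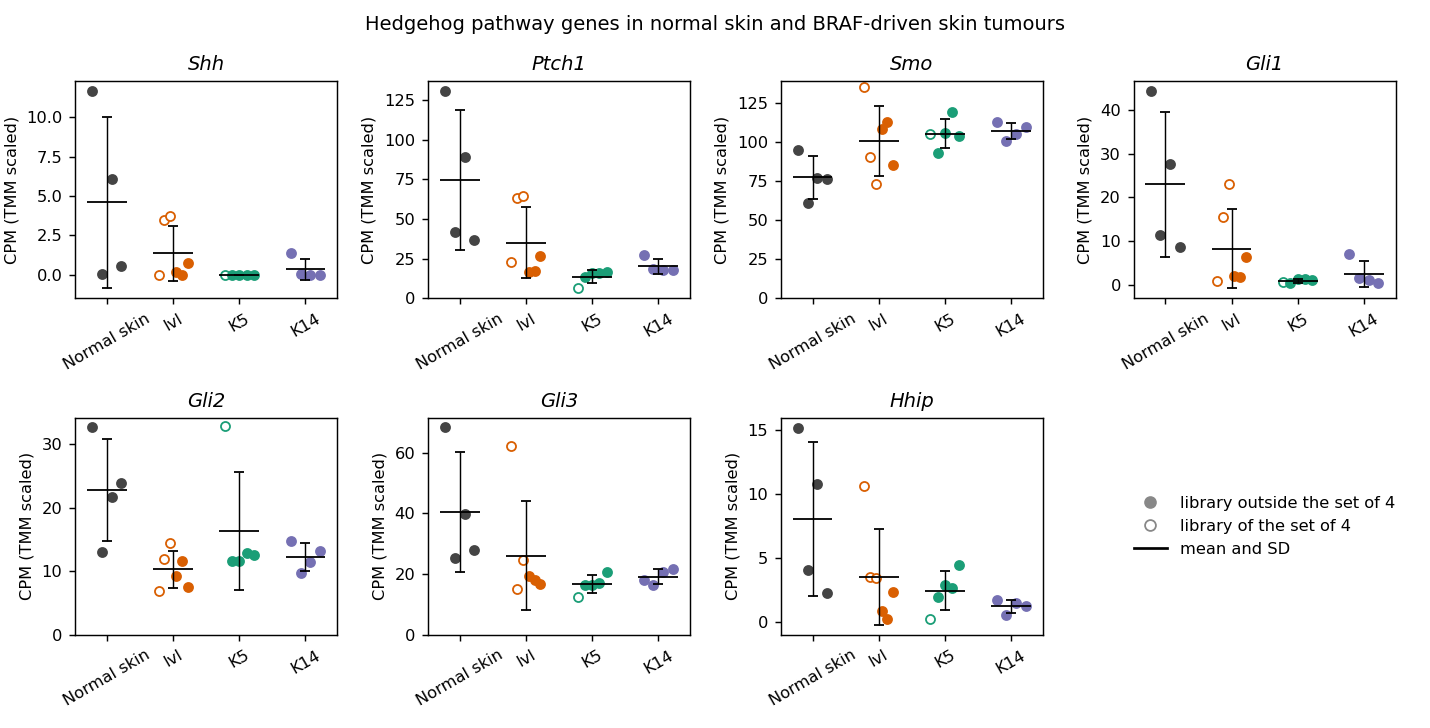
Each point is 1 library, with the level of a member in CPM (TMM scaled, linear axis) in normal skin (n = 4), Ivl (n = 6), K5 (n = 5) and K14 (n = 4) tumours, and lines show the mean and SD. Shh, Ptch1 and Gli1 are high in normal skin 1 and 3, and the open points of the set of 4 include the highest Ivl values of every member.

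K5 and K14 tumours, 9 in all and pooled here under the name K5/K14, were compared with skin. The ligand, its receptor and 3 downstream genes were lower, and only Smo was higher. Of the 7 genes, 5 fell (Shh, Ptch1, Gli1, Gli3 and Hhip) and 1 rose, by edgeR at an adjusted p under 0.05, where 38.9% of all 32031 genes tested were lower and 23.2% higher. Within the 15 libraries Gli2 joined them, making 6 lower and 1 higher, beside 42.2% and 23.9% of all genes. The median log2 fold change of the members was -2.103 over 19 libraries, that of all genes being -0.60. Over the 15 libraries these medians were -1.95 and -0.64.

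Shh (ENSMUSG00000002633, GRCm38 chromosome 5, 28456815 to 28467256, minus strand) was near the limit of detection in tumours. Normal skin 1 to 4 held 11.7, 0.0674, 6.06 and 0.566 CPM, the lowest of which rested on 6 counts. All 5 K5 tumours had 0 counts, and a count of 0 allows up to 3 counts, or 0.0477 to 0.0760 CPM in these libraries, with counting error alone considered. K14 tumours 1 to 4 held 1.37, 0.0231, 0 and 0 CPM, from 68, 1, 0 and 0 counts. Skin 1 and 3 were thus high and skin 2 and 4 low, and K14 tumour 1 exceeded both of the latter. Between K5/K14 tumours and skin the log2 fold change came to -4.85 ± 1.61 (SE, edgeR adjusted p = 0.0152) and -4.66 ± 1.54 within the 15 libraries (adjusted p = 0.0166). Since 7 of the 9 tumours were at 0, its size depended on K14 tumour 1, without which it was -9.96. Without normal skin 1 it did not pass in 19 (-3.80, adjusted p = 0.0632) or 15 libraries (-3.61, adjusted p = 0.0644), and DESeq2 over 19 libraries did not call it either (-5.05, adjusted p = 0.0540). Shh shares 807 exon bases with a pair of genes on the other strand (9530036O11Rik and Gm26894), and whether strand was used in counting is not stated, so part of its counts may belong to them.

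Ptch1 (ENSMUSG00000021466), receptor and target in one, was at 130.9, 41.9, 89.3 and 37.0 CPM in the 4 skin samples. In K5 tumours 1 to 5 it was at 6.36, 13.6, 15.6, 15.7 and 16.2 CPM. In K14 tumours 1 to 4 it was at 27.3, 18.5, 17.5 and 17.6 CPM. All 9 tumours lay below all 4 skin samples. The log2 fold change was -2.18 ± 0.39 (SE, edgeR adjusted p = 0.000148) and -2.07 ± 0.28 within the 15 libraries (adjusted p = 1.56e-05).

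Gli1 (ENSMUSG00000025407, chromosome 10, 127329882 to 127341974) differed most among the members with counts in every library. It was at 44.3, 11.3, 27.6 and 8.72 CPM in skin. It was at 0.651, 0.456, 1.49, 1.35 and 1.15 CPM in K5 tumours 1 to 5, and at 7.10, 1.54, 1.102 and 0.480 CPM in K14 tumours 1 to 4. The groups did not overlap, with K14 tumour 1 the nearest to skin. The log2 fold change was -3.75 ± 0.78 (SE, edgeR adjusted p = 0.000596), and -3.64 ± 0.68 within the 15 libraries (adjusted p = 0.000369). Of its exon bases 327 overlap genes on the other strand (Arhgap9 and Gm47200).

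Hhip (ENSMUSG00000064325, chromosome 8, 79965851 to 80058006) was at 15.2, 4.02, 10.8 and 2.21 CPM in skin, while K5/K14 tumours ranged from 0.238 to 4.43 CPM, with a median of 1.67 CPM. Several tumours therefore reached the range of skin. Its log2 fold change was -2.103 ± 0.72 (SE, edgeR adjusted p = 0.0173) and -1.95 ± 0.60 within the 15 libraries (adjusted p = 0.0103). The call was lost without normal skin 1, in 19 (-1.61, adjusted p = 0.0869) and in 15 libraries (-1.46, adjusted p = 0.0569).

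The other GLI factors were lower by smaller amounts. Gli3 (ENSMUSG00000021318, chromosome 13, 15463235 to 15730026) was at 68.5, 25.4, 39.7 and 28.0 CPM in skin, and the 9 tumours ranged from 12.4 to 21.7 CPM, with no overlap. Its log2 fold change was -1.19 ± 0.31 (SE, edgeR adjusted p = 0.00287) and -1.13 ± 0.20 within the 15 libraries (adjusted p = 0.000148). Gli2 (ENSMUSG00000048402, chromosome 1, 118834132 to 119053619) was at 32.7, 13.0, 21.6 and 23.9 CPM in skin, and 8 of the tumours ranged from 9.73 to 14.8 CPM. K5 tumour 1, from the set of 4, held 32.9 CPM. With it the log2 fold change of Gli2 was -0.65 ± 0.28 (edgeR adjusted p = 0.0516), against -0.90 ± 0.18 in the 15 libraries (adjusted p = 0.000557).

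Smo (ENSMUSG00000001761, chromosome 6, 29735503 to 29761365) went the other way. It was at 94.7, 61.0, 77.2 and 76.6 CPM in skin, at 105.4, 93.0, 105.8, 119.4 and 104.0 CPM in K5 tumours and at 112.8, 101.0, 105.2 and 109.8 CPM in K14 tumours. Of the 9 tumours 8 lay above all skin samples. The difference was small, at 0.46 ± 0.14 on the log2 scale (SE, edgeR adjusted p = 0.00865) and 0.46 ± 0.11 within the 15 libraries (adjusted p = 0.00228). With DESeq2 size factors in place of TMM, which moved the median of all genes by -0.11, it was 0.35 and remained past the threshold (adjusted p = 0.0365). It did not pass with a stricter filter on low counts (0.33, adjusted p = 0.0519) or without normal skin 2 (0.35, adjusted p = 0.0526).

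**Figure D2:**
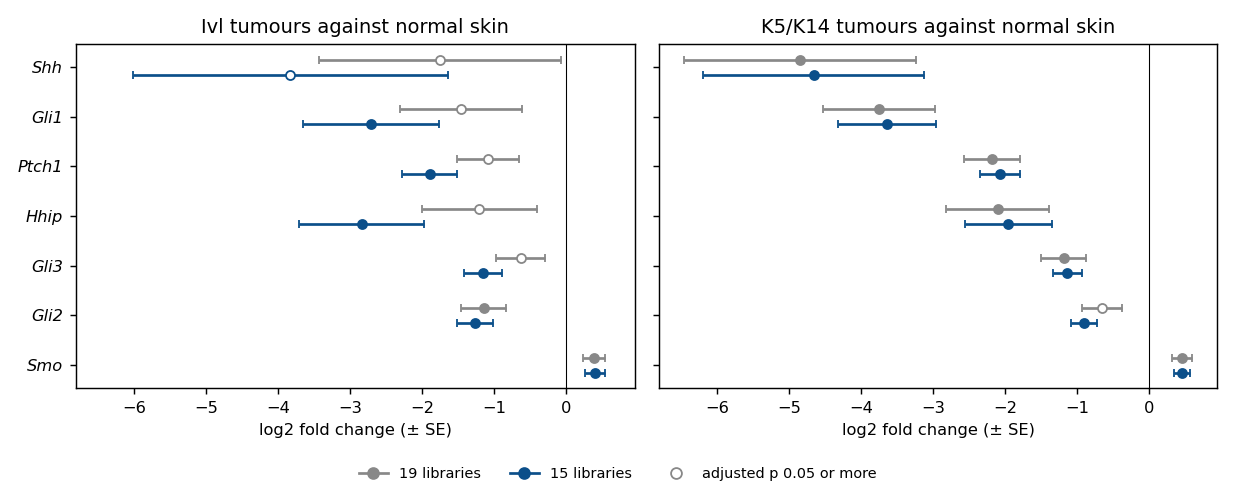
Log2 fold changes against normal skin with standard errors (edgeR), for Ivl tumours on the left and K5/K14 tumours on the right, over 19 libraries in grey and over 15 in blue, with open points where the adjusted p was 0.05 or more. In K5/K14 tumours both sets of values lie close together, whereas in Ivl tumours Gli1 goes from -1.46 to -2.71 and Hhip from -1.21 to -2.84 once the set of 4 is left out.

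Ivl tumours were compared with skin in the same fit, to ask whether tumours begun in committed cells showed the same levels. Over all 19 libraries 1 gene fell, Gli2, and 1 rose, Smo, where 15.5% of all genes were lower and 20.4% higher. Which genes passed depended on the setting. With DESeq2 size factors, a stricter filter on low counts or DESeq2, Ptch1 was lower (-1.23 to -1.24, adjusted p = 0.0219 to 0.0334) and Smo did not pass (adjusted p = 0.162 to 0.194), so that the number called stayed at 2. With the set of 4 as a covariate Ptch1 also passed (-1.49, adjusted p = 0.0401), and Smo did not (adjusted p = 0.0589). In the 15 libraries 5 fell (Ptch1, Gli1, Gli2, Gli3 and Hhip) and Smo rose, where 32.7% of all genes were lower and 22.2% higher. The median log2 fold change over the members was -1.15 in 19 libraries, that of all genes being -0.46. With DESeq2 size factors the median of all genes moved by a further -0.13, and the share of higher genes among all those called went from 56.8% to 45.6%.

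Ivl tumours were unlike each other. Shh was at 0, 3.48, 3.71, 0.199, 0 and 0.751 CPM in tumours 1 to 6. Ptch1 was at 23.1, 63.0, 64.3, 16.6, 17.1 and 26.5 CPM. Gli1 was at 0.861, 15.6, 23.1, 2.20, 1.87 and 6.45 CPM. Tumours 2 and 3, both from the set of 4, lay within the range of skin for all 3 genes, whereas the other 4 lay below all skin samples for Ptch1 and Gli1. Over 19 libraries the log2 fold change was -1.09 ± 0.43 for Ptch1 (edgeR adjusted p = 0.0557), -1.46 ± 0.85 for Gli1 (adjusted p = 0.169) and -1.75 ± 1.69 for Shh (adjusted p = 0.394). Within the 15 libraries, with tumours 4, 5 and 6, it was -1.90 ± 0.38 for Ptch1 (adjusted p = 0.000874), -2.71 ± 0.95 for Gli1 (adjusted p = 0.0267) and -3.83 ± 2.18 for Shh (adjusted p = 0.147). The Ptch1 call over 15 libraries held whichever library was left out. That of Gli1 was lost when Ivl tumour 4 (-2.46, adjusted p = 0.0898) or 5 (-2.41, adjusted p = 0.0932) was left out, and likewise for normal skin 1 (-2.22, adjusted p = 0.0636). Shh passed there only without K14 tumour 1 (-3.89, adjusted p = 0.0313).

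Among the downstream genes, Gli2 was lower in both sets of libraries. It ranged from 6.84 to 14.5 CPM in Ivl tumours (median 10.45 CPM), and only tumour 3 exceeded the lowest skin sample. The log2 fold change was -1.15 ± 0.31 (SE, edgeR adjusted p = 0.00707) and -1.27 ± 0.24 within the 15 libraries (adjusted p = 0.000523). Gli3 ranged from 15.2 to 62.1 CPM, the highest being tumour 1, with a median of 18.8 CPM. Its log2 fold change was -0.63 ± 0.34 (adjusted p = 0.137), -1.102 without tumour 1 alone (adjusted p = 0.00144) and -1.16 ± 0.26 within the 15 libraries (adjusted p = 0.00184). Hhip ranged from 0.187 to 10.7 CPM, again highest in tumour 1. It changed by -1.21 ± 0.80 (adjusted p = 0.222) over 19 libraries and by -2.84 ± 0.87 within the 15 (adjusted p = 0.0129), where it did not pass without Ivl tumour 4 (-2.68, adjusted p = 0.0507).

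Smo was at 135.5, 90.4, 73.0, 108.6, 112.8 and 85.2 CPM in Ivl tumours 1 to 6, of which 3 exceeded all skin samples. Its log2 fold change of 0.38 ± 0.15 stood at the threshold (SE, edgeR adjusted p = 0.0496). It was 0.25 with DESeq2 size factors (adjusted p = 0.162), and 15 of the 19 fits that left out 1 library lost the call, with values from 0.27 to 0.49 over all 19. In the 15 libraries it was 0.40 ± 0.14 (adjusted p = 0.0221), and the call was lost without Ivl tumour 4 or 5 or normal skin 2, 3 or 4 (0.26 to 0.36, adjusted p = 0.0687 to 0.113).

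The tumours of different origin were then compared with each other. Of the 7 genes 0 differed between Ivl and K5/K14 tumours with edgeR, in 19 libraries or in 15, where 2.36% and 0.406% of all genes did. At an unadjusted p under 0.05 there were 6754 and 3613 genes. Over 19 libraries Gli1 was at 8.34 CPM ± 9.05 in the 6 Ivl tumours (SD) and 1.70 ± 2.07 in the 9 K5/K14 tumours, a log2 difference of 2.29 ± 0.71 (SE, adjusted p = 0.0845), and DESeq2 called it (adjusted p = 0.0144) together with Ptch1 (adjusted p = 0.0463). Ptch1 was at 35.1 CPM ± 22.4 and 16.5 ± 5.42, a log2 difference of 1.09 ± 0.35 (adjusted p = 0.0961). Within the 15 libraries these differences were 0.93 ± 0.74 for Gli1 (adjusted p = 0.709) and 0.18 ± 0.32 for Ptch1 (adjusted p = 0.914). K14 tumour 1 weighed on them too. Without it, edgeR over 19 libraries called Gli1 (3.02, adjusted p = 0.0227) and Shh (adjusted p = 0.0211). Shh differed by 3.096 ± 1.47 over 19 libraries (adjusted p = 0.237) and by 0.83 ± 1.76 over 15 (adjusted p = 0.942). The remaining members differed by -0.50 (Gli2) to 0.90 (Hhip) in 19 libraries, with adjusted p of 0.258 or more, and Hhip had the opposite sign in 15 (-0.89, adjusted p = 0.714). These values do not show that the origins were alike.

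Between K5 and K14 tumours 0 of the 7 genes differed, among 0% of all genes over 19 libraries and 0.0531% over 15. Over 19 libraries edgeR had 1945 genes at an unadjusted p under 0.05 and DESeq2 called 173. Ptch1 was lower in each K5 tumour than in each K14 tumour, with a log2 difference of -0.58 ± 0.45 (SE, edgeR adjusted p = 0.891) and -0.40 ± 0.33 within the 15 libraries (adjusted p = 0.709). For Gli1 it was -1.33 ± 0.89 (adjusted p = 0.887) and without K14 tumour 1 it was -0.03. No fold is given for Shh, which was at 0 in all K5 tumours and at 1 count or fewer in 3 of 4 K14 tumours.

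Markers of the hair follicle moved with these genes across the tumours but less clearly in skin, and their part in the results was not tested. Of 18 hair bulb and matrix markers 17 were matched. Their summed level was 5685, 79.1, 2521 and 2208 CPM in normal skin 1 to 4, 94.0, 3075, 1346, 394.9, 164.6 and 1199 CPM in Ivl tumours 1 to 6, 159.9 to 343.4 CPM in K5 tumours and 2172, 271.1, 207.0 and 194.3 CPM in K14 tumours 1 to 4. The libraries with over 1000 CPM outside skin (Ivl tumours 2, 3 and 6 and K14 tumour 1) were also the 4 tumours with the most Shh, Ptch1 and Gli1. Normal skin 2 went against this, with little bulb RNA and 11.3 CPM of Gli1. So did normal skin 4, with 2208 CPM of bulb markers but the lowest Gli1 of the skin samples (8.72 CPM) and 0.566 CPM of Shh. The match was not particular to the hair bulb. The same 4 tumours had the highest skeletal muscle sums (478.7 to 4120 CPM, other tumours up to 165.6 CPM). They also led in sebaceous gland markers (181.2 to 426.6 CPM, others up to 160.2) and outer root sheath and bulge markers (637.3 to 1421 CPM, others up to 547.2). In the remaining lists these 4 tumours were not the highest 4. The hair keratins Krt33b and Krt34 were at 0 in all K5 tumours. By edgeR over the 15 libraries 6 of the 17 markers were lower and 0 higher in K5/K14 tumours, and 3 lower and 0 higher in Ivl tumours, smaller shares than the 42.2% and 32.7% of all genes that were lower. Their median log2 fold changes there were nevertheless larger, at -3.107 in K5/K14 and -2.164 in Ivl tumours, against -0.636 and -0.660 for all genes. Markers of the outer root sheath and bulge summed to 1055 to 2211 CPM in skin, 330.4 to 1421 CPM in Ivl and 239.9 to 1073 CPM in K5/K14 tumours, and 11 and 9 of 12 were lower in K5/K14 and Ivl tumours over the 15 libraries. The dermal papilla list, the cells that receive Shh, summed to 39.0 to 83.9 CPM in skin, 25.7 to 162.0 CPM in Ivl and 128.2 to 224.4 CPM in K5/K14 tumours, although 7 of its 10 genes were lower and 1 higher in K5/K14 tumours over the 15 libraries. Skeletal muscle and adipocyte markers, at 2291 to 6993 CPM and 174.3 to 443.8 CPM in skin, were at 6.597 to 478.7 CPM and 1.54 to 68.8 CPM in K5/K14 tumours, with 8 of 8 and 4 of 6 lower over 19 libraries, and at 5.07 to 4120 CPM and 3.19 to 207.9 CPM in Ivl tumours, with 0 lower over 19 libraries and 3 of 8 and 3 of 6 lower over 15. Of the sebaceous gland, Schwann cell and leukocyte lists 4 of 7, 4 of 5 and 2 of 5 genes were lower in K5/K14 tumours over 19 libraries, and 2 of 6 endothelial genes were higher. Over these 19 libraries 38.9% of all genes were lower and 23.2% higher in K5/K14 tumours, and 15.5% were lower in Ivl tumours. The leukocyte count was thus near the share of all genes. In Ivl tumours 2 of 7 sebaceous gland, 3 of 5 Schwann cell, 2 of 5 leukocyte and 4 of 10 fibroblast genes were lower over 15 libraries, where the 5 members and 32.7% of all genes fell. Fibroblast markers summed to 893.1 to 18890 CPM in skin, 1607 to 11110 CPM in Ivl and 4006 to 15430 CPM in K5/K14 tumours. The measured level of an RNA without poly(A) differed as well. Rn7sk, which has no poly(A) tail, was at 1374 to 2135 CPM in skin, 1239 and 813.6 CPM in Ivl tumours 2 and 3 and 2.21 to 15.9 CPM in the other tumours, and its part was not tested either. Ivl tumours 2 and 3 belong to the set of 4, whose averages were close to those of the other 15 libraries, skin included. Their values of Rn7sk, like their marker sums, therefore need not show the content of these samples.

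**Figure D3:**
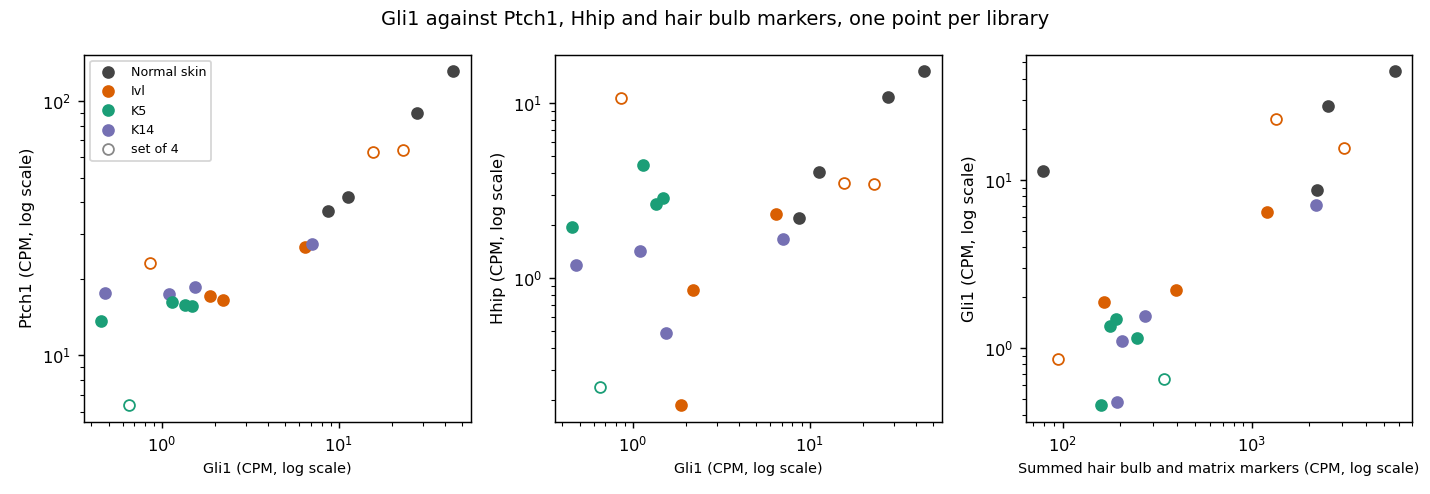
Each point is 1 library on logarithmic axes, with Ptch1 (left) and Hhip (middle) against Gli1 in CPM, and Gli1 against the summed hair bulb and matrix markers (right), coloured by group and open for the set of 4. The tumours with the most Gli1 (Ivl 2, 3 and 6 and K14 1) also have the most Ptch1 and over 1000 CPM of bulb markers. Normal skin 2 stands at 79.1 CPM of bulb markers with 11.3 CPM of Gli1, and normal skin 4 at 2208 CPM with 8.72 CPM of Gli1.

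Over the 11 tumours outside the set of 4, the relation of Gli1 with each of the other members but Shh was computed on log2 CPM (5 relations, two-sided permutation tests). Gli1 and Ptch1 had a Pearson r of 0.848 (permutation p = 0.00682, Benjamini-Hochberg adjusted 0.0341) and a Spearman rho of 0.564 (permutation p = 0.0796, adjusted 0.398). Without K14 tumour 1 and Ivl tumour 6, the tumours farthest from the median of Gli1, r was 0.379. Leaving out extreme tumours narrows the range of Gli1 and by itself tends to lower r. Whether the relation rested on them is therefore not settled. With Hhip, Gli2, Gli3 and Smo r lay between -0.31 and -0.03 (adjusted permutation p = 0.665 or more). As a description over the 15 libraries, which share the contrast of skin and tumour, the protein-coding genes most like Gli1 among 13730 were Scube3 (r = 0.965), whose product promotes release of the ligands, Svip (0.952), St8sia6 (0.948), Spsb4 (0.943) and Vdr (0.942), the vitamin D receptor. Ptch1 stood at rank 16 (0.931) and Shh at rank 90 (0.901). Those most like Shh were Gm49425 (0.966), the hair keratin Krt35 (0.963), the hair keratin-associated protein Krtap16-1 (0.958), Fbp1 (0.958) and Mycn (0.954).

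The remaining members of the pathway were read from 5 lists of 81 other genes, all of them in the table. In K5/K14 tumours 36 were lower and 12 higher than in skin over 19 libraries, and 42 and 15 over 15 libraries, where all genes were lower in 38.9% and 42.2% and higher in 23.2% and 23.9%. In Ivl tumours 10 were lower and 10 higher over 19 libraries, and 38 and 13 over 15, beside 15.5% and 32.7% of all genes lower and 20.4% and 22.2% higher. The median log2 fold change of the 81 genes in K5/K14 tumours was -0.42 over 19 libraries, against -0.60 for all genes and -2.103 for the 7 members.

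Among the genes for ligands and their release, 0 of 7 were higher in either comparison. Of all genes 23.2% were higher in K5/K14 and 20.4% in Ivl tumours over 19 libraries. Ihh stayed at or below 0.225 CPM in every library and Dhh between 0.307 and 2.05 CPM. Dhh shares 1653 exon bases with Rhebl1 on the same strand and Gm49442 on the other, which leaves its counts uncertain. Dhh passed only in K5/K14 tumours within the 15 libraries (-0.98, edgeR adjusted p = 0.0386), and Ihh in none of the comparisons. In K5/K14 tumours 4 of the 7 were lower over 19 libraries and 5 over 15, beside 38.9% and 42.2% of all genes. Scube3 was at 14.4 CPM ± 10.4 (SD, n = 4) in skin and 1.23 ± 0.942 (n = 9) in these tumours, a difference of -3.55 ± 0.65 on the log2 scale (SE, edgeR adjusted p = 0.000193). Scube1, of the same family, changed by -3.51 ± 0.81 (adjusted p = 0.00128), Scube2 by -2.08 ± 0.68 (adjusted p = 0.0128) and Disp1, which exports the ligand from the cell, by -1.12 ± 0.24 (adjusted p = 0.000699). In Ivl tumours 0 of 7 passed over 19 libraries and 4 were lower over 15, beside 15.5% and 32.7% of all genes lower. Within the 15 libraries Scube2 was at -3.21, Scube3 at -2.95 and Disp1 at -1.18.

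Of 6 other genes of reception, 3 were lower and 1 higher in K5/K14 tumours over 19 libraries, where 38.9% and 23.2% of all genes were. In Ivl tumours 2 were lower, beside 15.5% of all genes. Within the 15 libraries 3 were lower and 1 higher in K5/K14 tumours (all genes 42.2% and 23.9%). In Ivl tumours 4 were lower there (all genes 32.7%). The co-receptors Cdon and Boc, which help the ligands bind, were lower in K5/K14 tumours (-1.65 ± 0.28, adjusted p = 9.09e-05, and -1.07 ± 0.22, adjusted p = 0.000428) and in Ivl tumours (-0.95, adjusted p = 0.0252, and -0.64, adjusted p = 0.0437). The co-receptor Gas1 was higher in K5/K14 tumours (0.80, adjusted p = 0.0413).

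Of 24 genes that carry or modulate the signal inside the cell, 7 were lower and 5 higher in K5/K14 tumours and 2 lower and 4 higher in Ivl tumours over 19 libraries. In the 15 libraries 11 were lower in each, with 6 and 5 higher. Of all genes 42.2% were lower and 23.9% higher there in K5/K14 tumours, and 32.7% and 22.2% in Ivl tumours. Over 19 libraries the shares of lower and higher genes in K5/K14 tumours did not exceed those of all genes (38.9% and 23.2%). Nor did those in Ivl tumours (all genes 15.5% and 20.4%). In K5/K14 tumours those with the smallest adjusted p were higher. Spop, part of a ubiquitin ligase that marks GLI proteins for destruction, stood at 104.2 CPM ± 9.46 in the 4 skin samples (SD) and rose to 226.9 ± 28.0 in the 9 K5/K14 tumours and to 223.9 ± 38.1 in the 6 Ivl tumours. This was 1.12 on the log2 scale in K5/K14 tumours (edgeR adjusted p = 2.69e-06) and 1.103 in Ivl tumours (adjusted p = 1.97e-05). Csnk1a1, a casein kinase that phosphorylates GLI proteins, rose by 1.13 and 1.05, and Prkar1a, a regulatory subunit of protein kinase A, by 0.89 and 0.78, with adjusted p of 0.000225 or less. All 3 have many other substrates or partners. Sufu, the main cytoplasmic restraint on GLI proteins, was at 22.04 to 37.6 CPM in skin and 23.9 to 39.9 CPM in tumours and passed in none of the comparisons. Iqce, a ciliary scaffold protein of the pathway, was lower within the 15 libraries in both tumour groups (-0.81 in K5/K14, adjusted p = 4.64e-06, and -0.93 in Ivl tumours, adjusted p = 2.98e-05).

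Of 12 GLI target genes, 5 were lower and 3 higher in K5/K14 tumours and 2 lower and 3 higher in Ivl tumours over 19 libraries. Of all genes 38.9% and 23.2% were in K5/K14 and 15.5% and 20.4% in Ivl tumours. Within the 15 libraries 5 were lower and 4 higher in K5/K14 tumours (all genes 42.2% and 23.9%), and 4 and 3 in Ivl tumours (32.7% and 22.2%). Many of these targets answer to other pathways as well. The cyclin gene Ccnd2 was at 235.2 CPM ± 71.2 (SD, n = 4) in skin and 67.5 ± 10.2 (n = 9) in K5/K14 tumours, a difference of -1.80 ± 0.31 on the log2 scale (SE, edgeR adjusted p = 9.72e-05). Bcl2, an inhibitor of apoptosis, changed by -1.37 (adjusted p = 0.000221). In Ivl tumours Ccnd2 and Bcl2 changed by -1.52 and -1.29 within the 15 libraries (adjusted p = 5.57e-05 and 6.27e-05). The cyclin gene Ccnd1 went the other way in Ivl tumours, by 1.21 ± 0.30 (adjusted p = 0.00365), as did the mesenchymal transcription factor genes Foxf1 (1.93, adjusted p = 0.00729) and Foxf2 (3.43, adjusted p = 0.000374). Foxf2 was lowly expressed, at 0.0992 CPM in skin and 1.09 CPM in Ivl tumours, and it rose by 3.37 in K5/K14 tumours (adjusted p = 0.000201).

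Of 32 primary cilium genes 17 were lower and 3 higher in K5/K14 tumours over 19 libraries, where 38.9% of all genes were lower and 23.2% higher, and 4 were lower and 3 higher in Ivl tumours, where 15.5% and 20.4% were. Within the 15 libraries the numbers were 18 and 4 (all genes 42.2% and 23.9%), and 15 and 5 (all genes 32.7% and 22.2%). The list's median log2 fold change was -0.39 in K5/K14 tumours, less negative than the -0.60 of all genes. Ift80, of the transport machinery inside the cilium, changed by -1.18 ± 0.19 in K5/K14 tumours (SE, edgeR adjusted p = 5.27e-05) and Bbs2 by -0.92 ± 0.20 (adjusted p = 0.000622), whereas Ift20, which also works at the Golgi apparatus, rose by 1.03 in K5/K14 and 0.97 in Ivl tumours (adjusted p = 0.000153 and 0.000747). In Ivl tumours Wdr35 (0.44) and the motor gene Kif3a (0.47) rose too. In the 15 libraries Ttbk2, a kinase that starts ciliary growth, changed by -1.31 in K5/K14 and -1.32 in Ivl tumours (adjusted p = 2.41e-07 and 6.93e-06). It shares 3409 exon bases with Cdan1 on the same strand, which leaves its counts uncertain.

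Between Ivl and K5/K14 tumours 2 of the 81 genes differed over 19 libraries, both from the cilium list. Bbs7, part of the complex that carries proteins into the cilium, was at 5.78 CPM ± 1.101 in the 6 Ivl tumours (SD), 3.69 ± 0.438 in the 9 K5/K14 tumours and 6.04 ± 0.222 in the 4 skin samples, and the tumours differed by 0.65 ± 0.14 on the log2 scale (SE, edgeR adjusted p = 0.0305). Cep290, of the ciliary transition zone, ranged from 17.2 to 23.6 CPM in Ivl tumours, from 8.74 to 16.6 CPM in K5/K14 tumours and from 15.5 to 22.7 CPM in skin, a log2 difference between the tumours of 0.57 ± 0.14 (adjusted p = 0.0360). Neither passed within the 15 libraries (0.58, adjusted p = 0.0798, and 0.47, adjusted p = 0.206).

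**Figure D4:**
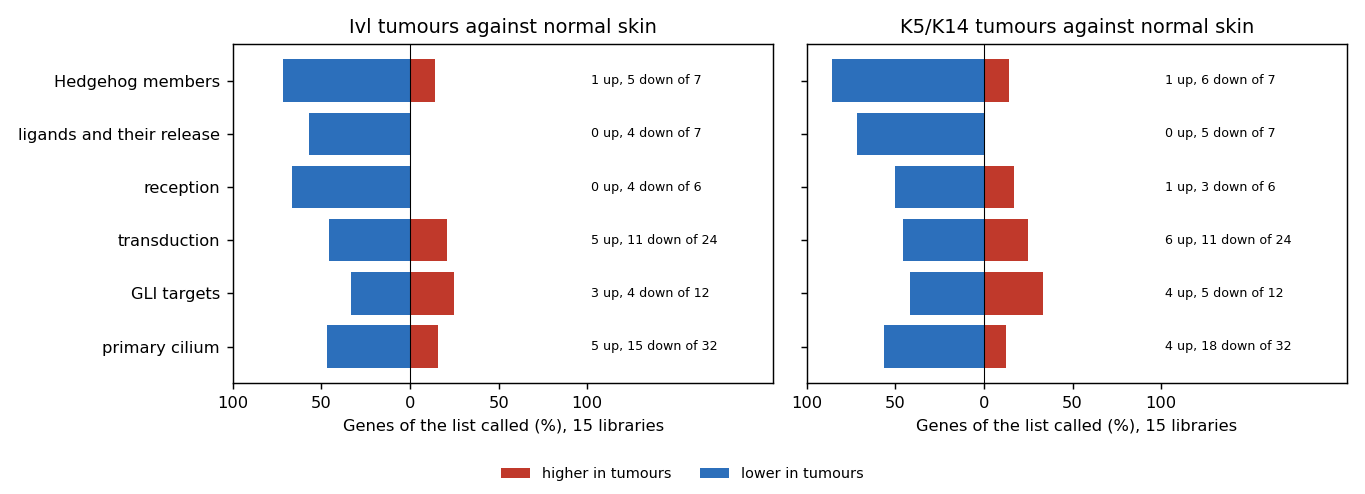
Share of each list that was higher (red, to the right) or lower (blue, to the left) than in normal skin by edgeR over the 15 libraries, in Ivl (left panel) and K5/K14 tumours (right panel), with the counts beside the bars. The 7 members have 5 and 6 genes lower, the cilium list 15 and 18 of 32, and the GLI targets 4 and 5 of 12, with 3 and 4 higher.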

How the data were processed

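Poly(A) RNA from 15 tumours and 4 samples of skin was sequenced with a strand-specific kit. Per the labels and the study's methods, the authors trimmed reads with Trim Galore, aligned them to GRCm38 with HISAT2 2.1.0, counted them per Ensembl gene with featureCounts (Subread 1.6.3) and adjusted the counts for batch with ComBat-seq. The deposited values are therefore whole-number estimated counts, not the original reads, and an adjustment of this kind can move a group's mean where batch and group overlap. Which library belonged to which batch, and whether counting used strand, is not given in the sources used here. The fits had been planned for counts and were kept, since the values are whole. Of 34807 gene identifiers 34694 were matched to the annotation.

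A gene entered the tests when any 1 library held 5 or more counts (32031 genes, with 2776 left out). Differences were tested with the quasi-likelihood F test of edgeR 4.0.16 (R 4.3.3) after TMM normalisation, with Benjamini-Hochberg adjustment over all genes tested and a threshold of 0.05. K5 and K14 tumours were merged as in the study. Levels are CPM on TMM-scaled library sizes, divided by exon length where genes are compared. Every fit was repeated on the 15 libraries outside the set of 4. Other settings were DESeq2 1.42.0, its size factors, other filters, the set as a covariate, K5 and K14 apart, a replicate block and leaving out each library. The 37 pairs of replicates differed by more than sampling noise (chi-square per degree of freedom of 25.9 or more). The scripts were tested on simulated data. Total counts of 45715309 to 72609771 leave a limit of 3 counts for a gene at 0, which covers counting error only.

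The members and lists were chosen with earlier results of these data known. The text names the 7 members, the pathway genes with the smallest adjusted p in each list (at most 3 for each comparison), genes called between tumour groups and the 5 genes most like Gli1 and Shh. Dhh, Ihh, Sufu, Gas1 and others beyond this rule were added after their values were seen. Some results that this rule would give are not reported here.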

Additional observations from a re-analysis of the deposited data

Results flagged for a closer look

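In 40 groups of 4 to 6 libraries (the 7 members, Ihh, Dhh and Sufu), 7 had 1 library far from the rest by Dixon's criterion. Chance gives this in about 1 of 20 groups of normally distributed values, a rate that need not hold for CPM of genes with few counts. The groups included Shh in K5 tumours, at 0 throughout, and several flags came from the same library. K14 tumour 1 stood above the other K14 tumours in 3 genes. It held 1.37 CPM of Shh (the others 0 to 0.0231), 27.3 CPM of Ptch1 (17.5 to 18.5) and 7.10 CPM of Gli1 (0.480 to 1.54). Its hair bulb and matrix markers summed to 2172 CPM, against 194.3 to 271.1 CPM in the others, and their part was not tested. K5 tumour 1, from the set of 4, held 6.36 CPM of Ptch1 (the others 13.6 to 16.2) and 32.9 CPM of Gli2 (11.6 to 12.8). Ivl tumour 1, from the same set, held 62.1 CPM of Gli3 (15.2 to 24.6) and 10.7 CPM of Hhip (0.187 to 3.497).

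The change from skin differed between Ivl and K5/K14 tumours for a pair of cilium genes, Bbs7 by 0.65 and Cep290 by 0.57 on the log2 scale (edgeR adjusted p = 0.0305 and 0.0360 over 19 libraries, 0.0798 and 0.206 over 15).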

How the results depend on the processing

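No member's fold change reversed a call under the settings run, but counts of calls moved. Within the 15 libraries the genes called between Ivl tumours and skin went from 11515 to 17563, the members from 2 to 6 and the other pathway genes from 20 to 51. For the last, a stricter filter gave 32, DESeq2 37 and the replicate block 11. The members were 1 with no filter and 1 with K5 and K14 apart, Smo being at the threshold. Between Ivl and K5/K14 tumours 756 genes became 130 in 15 libraries, 449 with the set as a covariate, 46 with the replicate block and 2133 with DESeq2, which called 2 members, and the 2 pathway genes became 0, 1, 0 and 8. Between K5 and K14 tumours 0 genes became 17 in 15 libraries, 2 in these 9 libraries alone and 173 with DESeq2. The cause was not tested. Leaving out 1 library at a time, from 19 or 15, gave 9172 to 17549 genes, 1 to 7 members and 12 to 52 pathway genes for Ivl tumours against skin. It gave 17751 to 21213, 4 to 7 and 43 to 59 for K5/K14 tumours against skin, 50 to 1327, 0 to 2 and 0 to 6 between Ivl and K5/K14 tumours, and 0 to 23, 0 to 0 and 0 to 0 between K5 and K14 tumours. Same-numbered libraries of different groups share only a number (25 pairs, median r of -0.01, -0.50 to 0.43), and under the replicate block 27 of 28 member results kept their call, Hhip in K5/K14 tumours being lost (-1.76, edgeR adjusted p = 0.0960). Shh, with at most 1 count in 8 of the 9 K5/K14 tumours, is limited by depth.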
